A study of Mus musculus with 2 samples.

Results

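On the CH cell arrays, genes that mark hematopoietic stem cells (HSCs) of the mouse ranged from high to background signal. Mecom, Hlf, Mllt3, Procr and Cd48 had a probe set above 8 (log2) on both arrays, Mecom with 1 of its 3. Its other probe sets were at 5.78 and 3.73. Prdm16 and Fgd5 lay between 5 and 8, with highest probe sets at 6.98 and 6.50. Smell, taste and pheromone receptor genes, taken as background, reached 6.92, so Fgd5 lay within their range and Prdm16 next to its top. Cd34 and Slamf1 stayed below 5 with every probe set. The RNA signal of Cd48 was thus well above background, while that of Slamf1 was not. Long-term HSCs of the mouse lack the CD48 protein on their surface and carry that of Slamf1. The arrays read RNA only, so they do not show which of these proteins CH cells carry. The 10 genes were known HSC markers chosen by name with their log2 signals on these same arrays in view, so the levels are given as a description, with no test. Of the 10, 9 had a probe set that names them alone, 19 probe sets in all, out of 34945 such probe sets for 18193 genes. Ly6a, the gene of the surface antigen Sca-1, was not matched to a probe set and is not analysed here.

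CH cells are small, viable (Sytox-negative) cells that stain with the DNA dye Vybrant and lack CD45 and lineage antigens, sorted from the peripheral blood of healthy mice. The arrays, each an Affymetrix whole-genome array for the mouse, read total RNA of 2 pools of PlCH cells, as the submitters call them, with 1 array per pool. According to the submitters' labels, each pool came from 15 adult C57bl/6 mice, males and females of 7 months, whereas the methods of the study give younger mice and smaller pools. Both arrays belong to the same group, and no other treatment, genotype or cell type was analysed here, so no comparison between groups was made. In pooled RNA, a few cells with much of a transcript and many cells with little cannot be told apart.

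HSCs sustain all blood lineages for life and are recognised in the mouse by a combination of antigens and not by a single one. In adult bone marrow, cells that are positive for SLAMF1 (CD150) and negative for CD48, or positive for Kit and Sca-1 and negative for CD34, are enriched for long-term HSCs, and EPCR, the product of Procr, adds to both schemes. Transcription factors such as MECOM, HLF and PRDM16 maintain these cells. Several of the genes are known from other tissues as well, among them Procr, Cd34, Fgd5 and Mecom in endothelial cells and Cd48 on most leukocytes.

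Signals are log2 values as deposited. A limit of 5 (log2) was taken from the study's removal of low genes and was applied to both CH cell arrays. Of all 18193 genes, 71.2% had a probe set above 5 on both arrays and 37.0% had one above 8, and of all probe sets naming 1 gene these shares were 64.8% and 29.0%. Of the 9 HSC marker genes, 7 (77.8%) were above 5 and 5 (55.6%) above 8, and of their 19 probe sets 14 (73.7%) were above 5 and 8 (42.1%) above 8. The share above 5 was near that of all genes. The counts include Cd48 and Cd34, whose products long-term HSCs of the mouse lack or carry little of. They therefore do not measure likeness to HSCs. The median of the highest probe sets of the 9 genes was 8.70, against 6.84 over all genes. With levels of 4.47 to 10.32 the 9 genes did not lie together, and the SD over them was 2.16, against 2.56 over all genes. Chemosensory receptor genes (smell, taste and pheromone receptors), taken as a measure of signal without transcript, were above 5 for 13 of 77 genes, with a median of 4.10, a 95th percentile of their probe sets of 6.02 and a highest gene, Vmn1r44, at 6.92. Signals of different probe sets also depend on probe affinity, so the levels are read against the limit and this background and do not rank transcripts.

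**Figure D1:**
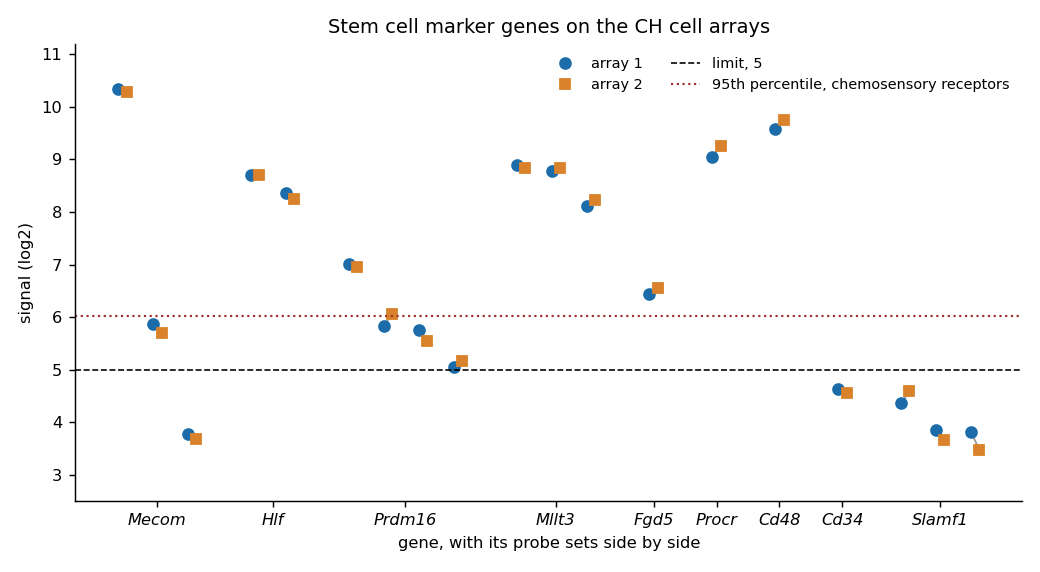
Log2 signal of the 19 probe sets of 9 HSC marker genes, with a circle for array 1 and a square for array 2, and the probe sets of a gene side by side along the horizontal axis. A dashed line stands at 5, and a dotted one at 6.02, below which 95% of chemosensory probe sets fall. All probe sets of Hlf and Mllt3 lie above 8, those of Cd34 and Slamf1 below 5, and those of Mecom spread over 3.73 to 10.32.

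The stretches of 250 bases before the annotated starts of 3 of these genes are shown with every CG in capitals, 5′ to 3′, because the starts differ in CG content and because Mecom, the gene whose probe sets disagreed most, has a start upstream and another downstream within its locus. They are RefSeq sequences of GRCm38.p6.
Mecom, upstream start, chr3:30509760-30510009, minus strand: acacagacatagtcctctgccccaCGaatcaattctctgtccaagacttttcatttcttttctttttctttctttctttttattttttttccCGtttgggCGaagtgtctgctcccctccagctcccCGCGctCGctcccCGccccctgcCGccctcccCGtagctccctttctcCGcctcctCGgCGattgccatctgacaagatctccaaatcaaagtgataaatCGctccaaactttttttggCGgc
Mecom, downstream start, chr3:30013205-30013454, minus strand: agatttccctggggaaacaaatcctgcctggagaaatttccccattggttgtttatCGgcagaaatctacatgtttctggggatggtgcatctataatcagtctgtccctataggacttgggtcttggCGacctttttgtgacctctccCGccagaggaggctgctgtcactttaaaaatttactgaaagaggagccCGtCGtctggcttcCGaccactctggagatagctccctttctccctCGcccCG
Hlf, chr11:90390918-90391167, minus strand: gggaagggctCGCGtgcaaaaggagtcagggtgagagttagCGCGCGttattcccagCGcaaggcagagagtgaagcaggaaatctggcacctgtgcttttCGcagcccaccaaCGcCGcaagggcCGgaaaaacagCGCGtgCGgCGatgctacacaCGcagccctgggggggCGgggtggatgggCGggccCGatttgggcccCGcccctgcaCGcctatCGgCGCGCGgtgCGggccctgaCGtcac
Slamf1, chr1:171766882-171767131, plus strand: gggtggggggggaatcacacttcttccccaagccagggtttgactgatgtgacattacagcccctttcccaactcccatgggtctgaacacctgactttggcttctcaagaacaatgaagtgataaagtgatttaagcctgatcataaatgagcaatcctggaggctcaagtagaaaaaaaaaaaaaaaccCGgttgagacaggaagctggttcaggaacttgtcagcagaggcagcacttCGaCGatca

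The median over 32851 promoters of the same table was 6 CG in 250 bases, and the 95th percentile was 31. Hlf had 26 CG, at percentile 90.4. The Mecom starts had 14 upstream and 8 downstream. Slamf1 had 3, at percentile 29.0. Among the promoters not shown, Fgd5 had 31 CG, Prdm16 22, Procr 13, Cd34 6 and Cd48 4, and the starts of Mllt3 had 23 and 4. CG content below the median thus stood beside signal below 5 for Slamf1 and beside 9.66 for Cd48, CG content at the median beside 4.58 for Cd34, and high CG content beside 8.70 for Hlf and 6.50 for Fgd5. The ETS type motif CCGGAA was found before Hlf alone among the members, and in 12.03% of all promoters. The GATA type motif AGATAA, in 9.99% of all promoters, and the TATA box motif TATAAA, in 12.4%, were found in none of the members' windows. The CCAAT box, in 33.8% of all promoters, was found before the downstream start of Mecom, both starts of Mllt3 and Prdm16. All were searched on both strands, with no regard to overlap, and a match describes letters only. Other forms of the ETS and GATA type motifs were not searched, so the result for Hlf holds for CCGGAA only. One other GATA form, TGATAA, stands in the windows shown for the upstream start of Mecom and for Slamf1.

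Among the transcription factors, Mecom encodes the zinc finger factor MECOM (EVI1), required to maintain HSCs and rearranged in myeloid leukemia. Probe set 1438325_at read 10.34 on array 1 and 10.29 on array 2, a mean of 10.32 ± 0.04 (SD, n = 2 arrays), at percentile 90.7 of probe sets naming 1 gene. Probe set 1422295_at read 5.87 and 5.70, within the range of chemosensory receptors. Probe set 1423011_at read 3.78 and 3.68, at percentile 9.35. Both arrays gave the same order of the 3 probe sets, and the gap of 6.59 between the highest and the lowest was far larger than any difference between arrays. Over 9010 genes with several probe sets the median gap was 2.06 and the 95th percentile was 6.60. The annotation lists RefSeq transcripts of Mecom behind the lower probe sets and no accession behind the highest. Which of the starts shown above each probe set reads was not tested. The level of Mecom therefore rests on 1 of its 3 probe sets.

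Hlf encodes a PAR bZIP factor that marks the most primitive HSCs and restrains their cycling. Probe set 1434736_at read 8.71 on array 1 and 8.70 on array 2 (8.70 ± 0.005), and 1434735_at read 8.37 and 8.25 (8.31 ± 0.09; SD, n = 2 arrays each). Both probe sets were above 8 on both arrays and differed from each other by 0.40. The annotation lists the same source sequence behind both, so they are not independent readings of Hlf. The family of PAR bZIP factors and Nfil3, which binds the same sites, was above 5 in 3 of 3 genes, with Tef at 9.31, Nfil3 at 9.31 and Dbp at 7.93. With the lowest probe set of each gene, 2 of 3 were above 5, since Tef had a probe set at 4.52.

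Prdm16 encodes a PR domain zinc finger factor that maintains HSCs and also specifies brown fat, and it is a paralog of Mecom. Its probe set 1440870_at read 7.01 on array 1 and 6.96 on array 2 (6.98 ± 0.04, SD, n = 2 arrays). Probe set 1429309_at read 5.83 and 6.06, and 1440745_at read 5.75 and 5.54. Probe set 1429308_at read 5.04 and 5.16, just above the limit. All 4 probe sets were above 5, and the highest lay next to the highest chemosensory receptor gene, Vmn1r44 at 6.92. Of 10 other PRDM genes, 7 were above 5, the highest being Prdm4 at 9.23 and Prdm2 at 7.73, and the lowest Prdm14 at 4.01 and Prdm8 at 4.61.

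Mllt3 encodes AF9, a reader of acylated histones and a subunit of the super elongation complex, known to sustain human HSCs. Its probe set 1453622_s_at read 8.90 on array 1 and 8.84 on array 2 (8.87 ± 0.05, SD, n = 2 arrays). Probe set 1429205_at read 8.78 and 8.84, and 1431890_a_at read 8.12 and 8.23. All 3 were above 8, within 0.69 of one another, the closest match between probe sets after Hlf. Genes of its partners in elongation and histone methylation were above 5 in 10 of 10 cases and above 8 in 6, with Cdk9 at 11.07, Aff4 at 10.11, Ccnt1 at 9.77 and Mllt1 at 8.85, and with Cbx8 and Dot1l lowest at 7.17 and 7.21. With the lowest probe set of each gene, 6 of 10 partners were above 5. These partners serve transcription in most cell types.

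Fgd5 encodes an exchange factor for the small GTPase CDC42 that is used as a reporter locus of HSCs and is also active in endothelium. Its probe set 1460578_at read 6.44 on array 1 and 6.56 on array 2 (6.50 ± 0.08, SD, n = 2 arrays), and 1 of the 77 chemosensory receptor genes was higher. Other FGD genes were above 5 in 3 of 5 cases, with Fgd1 at 7.25 and Fgd6 at 6.57, and with Fgd4 and Fgd2 lowest at 4.78 and 4.91. The level of Fgd5 thus lay above the 95th percentile of chemosensory probe sets, 6.02, but still within the range of these genes, which reached 6.92.

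Surface markers were divided. Procr encodes the endothelial protein C receptor EPCR (CD201), which binds protein C and retains HSCs in the marrow. Its probe set 1420664_s_at read 9.04 on array 1 and 9.27 on array 2 (9.15 ± 0.16, SD, n = 2 arrays). Both arrays were above 8, and the suffix of the probe set means that it can read several transcripts. Other genes of the protein C and clotting pathway were above 5 in 5 of 5 cases. F2r, the thrombin receptor PAR1, was at 12.54 and Thbd, which encodes thrombomodulin, the cofactor of protein C activation, at 12.04. F3, which encodes tissue factor, was at 9.19 and Pros1 at 7.26, while Proc, made by the liver, was at 5.11. Endothelial markers were above 5 in 5 of 9 genes and above 8 in 0, with a median of 5.07 on array 1 and 5.20 on array 2. Egfl7 and Eng were highest at 7.32, and Tie1 and Emcn lowest at 4.15 and 4.17. Mesenchymal markers were above 5 in 11 of 12 genes and above 8 in 8. Their median was 9.91 on array 1 and 9.93 on array 2. Col1a2 and Cd44 were highest at 14.27 and 13.00, and Lepr and Nt5e lowest at 4.90 and 6.55. The lowest probe sets of Col1a2 and Cd44 were at 5.89 and 3.40. The part of either cell type in the Procr signal was not tested.

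Cd48 encodes a GPI-anchored adhesion protein of the SLAM family that most leukocytes and committed progenitors carry. Its only probe set, 1427301_at, read 9.57 on array 1 and 9.75 on array 2 (9.66 ± 0.13, SD, n = 2 arrays), at percentile 86.3. The annotation lists no accession behind this probe set, and the level of Cd48 rests on it alone. Both arrays lay well above every chemosensory receptor gene. Leukocyte markers as a list did not share this level. Of 10 matched genes, 6 were above 5 and 1 above 8, and the median was 5.86 on array 1 and 5.66 on array 2. Lyz2, the lysozyme of myeloid cells, was highest at 9.58, followed by Itgb2 at 6.74, Laptm5 at 6.69 and Cd3e at 6.61. Itgam and Ms4a1 were lowest at 3.85 and 4.33. Ptprc, which encodes the CD45 antigen that the sort selected against, read 4.95 on array 1 and 5.24 on array 2 with its higher probe set, at the limit. The part of leukocytes in the Cd48 signal was not tested.

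Slamf1 encodes CD150, a self-ligand receptor that defines long-term HSCs together with the absence of CD48. Its probe set 1425570_at read 4.35 on array 1 and 4.59 on array 2 (4.47 ± 0.16, SD, n = 2 arrays). Probe set 1425571_at read 3.84 and 3.65, and 1425569_a_at read 3.81 and 3.47. All 3 probe sets were below 5 on both arrays, and 27 of 77 chemosensory receptor genes were at or above the highest of them. Cd48 and Slamf1 lie close together on mouse chromosome 1, with 1 protein-coding gene between them, in a cluster of SLAM family genes with Cd244a, Ly9 and Slamf7 before Cd48 and with Cd84 and Slamf6 after Slamf1. Of the 7 other SLAM genes, Slamf9 was above 5 at 6.08, and the remaining 6 were not, from Cd84 at 3.97 to Slamf7 at 4.93. Cd48 was thus the only one of the 9 family members above 8.

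**Figure D2:**
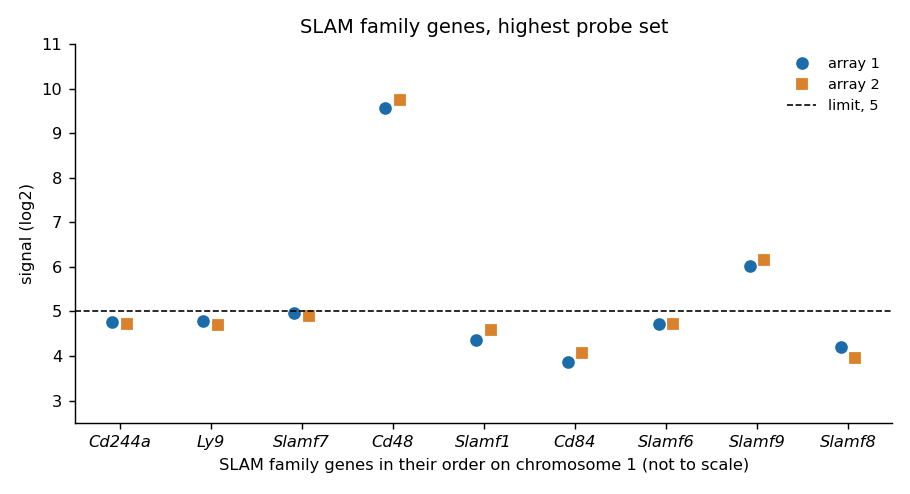
Log2 signal of 9 SLAM family genes in their order along chromosome 1, not to scale, with the highest probe set of each gene, a circle for array 1 and a square for array 2. The dashed line marks 5. Cd48 lies near 9.66, Slamf9 near 6.08 and all others below 5.

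Cd34 encodes a sialomucin of progenitors, vascular endothelium and some stromal cells, and adult long-term HSCs of the mouse carry little of it. Its probe set 1416072_at read 4.62 on array 1 and 4.54 on array 2 (4.58 ± 0.06, SD, n = 2 arrays), and 23 of 77 chemosensory receptor genes were at or above it. Both arrays were below the limit. Of its relatives, Podxl, which encodes podocalyxin of epithelia and vessels, was at 9.42, and Podxl2 was at 4.26. Of the Ly6 family, in which Ly6a belongs, Ly6e was at 10.67 with its higher probe set and at 5.65 with the other, and the 4 others matched were not above 5, from Ly6i at 4.41 to Ly6d at 4.88. None of these values stands for Ly6a.

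Other genes used to recognise HSCs and progenitors also lay on both sides of the limit. Over all genes, 71.2% had a probe set above 5 and 37.0% had one above 8. Of 14 matched surface genes, 10 (71.4%) were above 5, near the share of all genes, and 1 above 8, with a median of 5.88. Abcg2, the transporter behind the side population of stem cells, was highest at 9.99, followed by Cxcr4, the receptor that holds HSCs in the marrow, at 7.85, Thy1 at 7.47 and Itga2b at 7.18. Cd27 and Vwf were lowest at 3.77 and 3.83. Kit and Flt3, the receptors of stem cell factor and FLT3 ligand, were named after their values were seen. Kit read 6.96 on array 1 and 7.04 on array 2, with its other probe set at 5.41, and Flt3 read 6.20 and 5.93. Both were above 5 and below 8.

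Of 17 matched HSC transcription factors outside the 10 genes, 12 (70.6%) were above 5 and 2 above 8, with a median of 5.88. These shares were near the 71.2% and below the 37.0% of all genes. Hoxa9, which drives expansion of progenitors, read 10.34 on array 1 and 10.20 on array 2. Etv6 was at 8.26, Runx1 at 7.72 and Gata2 at 7.52, while Gfi1 and Hoxb5 were lowest at 3.82 and 4.69. Runx1 had all 6 of its probe sets above 5. The sort followed lysis of red cells in whole blood, left out cells with lineage antigens and required the DNA dye Vybrant, and mature red cells and platelets have no nucleus. Their markers were above 5 in 2 of 6 erythroid genes (33.3%) and 5 of 6 platelet and megakaryocyte genes (83.3%). The share over all genes was 71.2%. In either list 0 were above 8, against 37.0% of all genes. Epor was the highest erythroid gene at 7.14, and Ppbp the highest of the other list at 6.99. The part of red cells and platelets in the signal was not tested. All 5 matched housekeeping genes exceeded 8, and their median was 14.23.

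**Figure D3:**
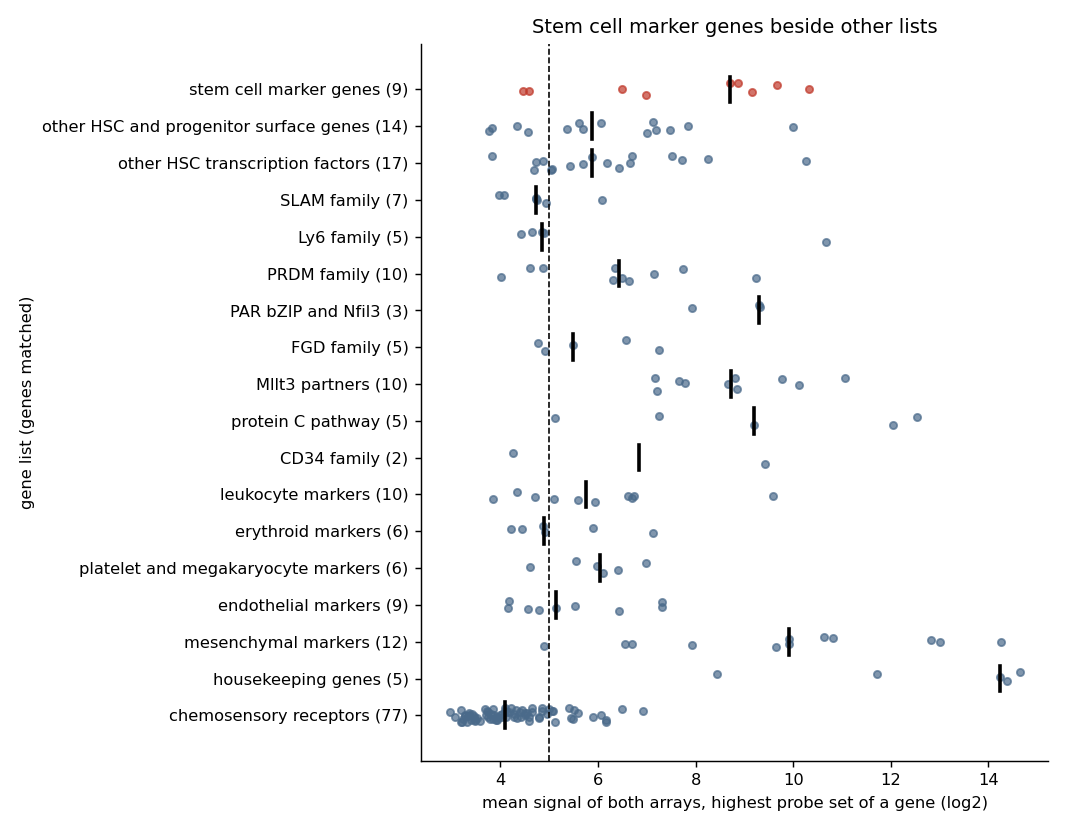
Mean log2 signal of both arrays for the genes of 18 lists, drawn as circles at each gene's highest probe set, with a black bar at the median and the number of matched genes in brackets. The dashed line marks 5. The 9 HSC marker genes, in red at the top, lie from 4.47 to 10.32 with a median of 8.70, and the chemosensory receptors, at the bottom, have a median of 4.10.

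The 19 probe sets differed little between the pools. Array 1 was higher in 11 and array 2 in 8, and the median absolute difference was 0.12, against 0.11 over all probe sets naming 1 gene. The difference was under 0.25 in 18 of 19, and the exception was the lowest Slamf1 probe set at 0.34, at percentile 91.3 of absolute differences. The smallest difference, 0.007, was that of an Hlf probe set. No probe set of the 9 genes crossed the limit of 5 between the arrays. With 1 array per pool the difference between pools cannot be tested, and the number of arrays limits the precision of each mean.

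**Figure D4:**
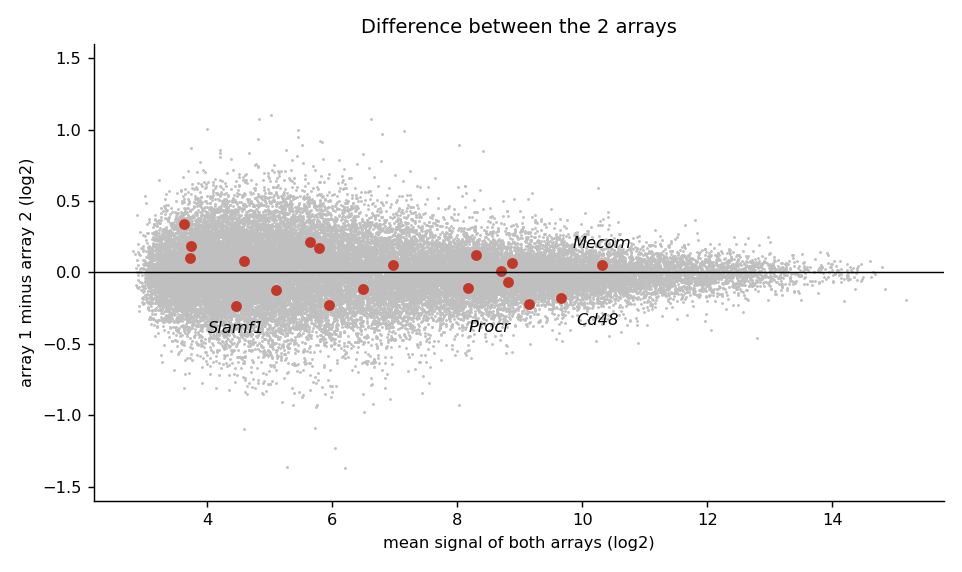
Log2 difference, array 1 minus array 2, against the mean log2 signal of both arrays for 34945 probe sets naming 1 gene (grey) and for the 19 probe sets of HSC marker genes (red). The red points lie between -0.23 and 0.34, within the grey cloud.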

How the data were processed

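RNA of 2 pools of CH cells was measured on 2 Affymetrix mouse whole-genome arrays. Values are the log2 signals that the authors deposited for each probe set. In the methods, arrays were processed by RMA and quantile normalised along with 5 public series. The origin of the values in that joint run and the tool versions are not given in the sources used here. After removal of 64 control probe sets, 45037 remained. The annotation gives 1 gene for 34945 of them, which were used, several genes for 932 and no entry for 9160. Updating through Entrez identifiers to GRCm38.p6 matched 34741 and changed 0 symbols. Across probe sets, the arrays correlated with Pearson's r = 0.9967, as a description.

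The members and gene lists were chosen with earlier results of these data known. A gene was counted above a limit when at least 1 probe set exceeded it on both arrays, and its highest probe set by mean gave its level. No test was made, because there is 1 group and the members were chosen on these levels. The counting was tested on simulated data. Named were all members, up to 4 genes with the highest and 2 with the lowest mean of each other list, Ptprc and the highest chemosensory receptor gene. Not every such gene is printed. Promoters are the 250 bases before RefSeq starts, with 11 windows for all 9 genes. The repeats used limits of 6 and 8, the background's 95th percentile, quantile normalization of both arrays, each array left out, no _s_at or _x_at probe sets, and the median or lowest probe set of a gene. Python 3.11.15 with numpy 2.4.6, pandas 2.3.3 and matplotlib 3.10.9 was used.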

Additional observations from a re-analysis of the deposited data

How the results depend on the processing

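The alternatives concern the counts, the median and the levels of the 9 HSC marker genes. The count of 7 genes above the limit stayed at 7 with a limit of 6, with a limit at 6.02 (95% of chemosensory probe sets lie below it), with quantile normalization, with 1 array dropped and with a gene's median probe set. It was 5 with a limit of 8, 6 of 8 without _s_at and _x_at probe sets, which leaves Procr without a value, and 6 of 9 with the lowest probe set, where Mecom drops to 3.73. The 14 probe sets above 5 became 10 with a limit of 6 or 6.02 and 8 with a limit of 8, and were 12 of 17 without _s_at and _x_at probe sets. Over single probe sets the members' median was 6.50, against 6.10 for all probe sets naming 1 gene. The median level of 8.70 moved to 7.84 without _s_at and _x_at probe sets and to 6.50 with the median or with the lowest probe set of each gene. With the median over its probe sets, Mecom was at 5.78, Hlf at 8.51, Prdm16 at 5.80, Mllt3 at 8.81 and Slamf1 at 3.74. With either array left out, the median lay between 8.70 and 8.71 and both counts were 7 and 14. The median absolute difference between arrays was 0.138 after quantile normalization. Of 17 other lists, 12 changed their count by over 1.5 times with a limit of 8, 5 with a limit of 6, 6 at the background's percentile and 2 with the lowest probe set, and none under the other settings. No paired analysis was possible because all arrays belong to 1 group.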

Other observations

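Some probe sets shared exactly the same deposited value within an array. On array 1 this held for 4244 probe sets (9.42%), with up to 65 on a single value, and on array 2 for 4230 (9.39%), with up to 66. The share was 10.8% below 5 and 5.06% above 8 on array 1, and 10.4% and 5.11% on array 2. Among the 19 probe sets of HSC marker genes, 3 held a shared value on array 1 and 1 on array 2. The value of Fgd5 on array 1, 6.44, was shared by 18 probe sets in all, Fgd5 included, and a Slamf1 probe set held a value of 55 probe sets. The step behind these shared values was not tested.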
